A study of Mus musculus with 10 samples.

Results

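The fatty acid elongases Elovl1, Elovl2, Elovl5, Elovl6 and Elovl7 and the fatty acid desaturases Fads1, Fads2, Fads3, Scd1 and Scd2 were followed in mouse fat. A probe set, a group of short probes against 1 transcript, was taken as a member where the platform annotation gave it exactly 1 symbol and that symbol was among these 10 genes. This found all 10 genes, of 18193 measured, on 29 of 45101 probe sets, from 1 for Elovl2 to 6 for Elovl7, and no probe set with several symbols held any of these genes. The tissue was epididymal white adipose tissue, the fat pad beside the epididymis, of male C57BL/6J mice that were 8 weeks old when the diets began. The chow group (5 mice) ate normal chow, CRF-1, for 8 weeks, and the high-fat group (5 mice) ate a diet with 60% fat for the same time. No genetic change or drug is named in the labels, and each mouse had 1 biotin-labelled array, so the spread between arrays includes the spread between mice.

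Elongases sit in the endoplasmic reticulum and add carbon units, drawn from malonyl-CoA, to an activated fatty acid. Each round of this elongation needs a condensing enzyme of the Elovl family, a reductase (Hsd17b12), a dehydratase (Hacd genes) and a second reductase (Tecr). Desaturases place a double bond in the chain with electrons that cytochrome b5 and its reductase supply. Scd enzymes make monounsaturated fat from saturated fat, and in fat tissue Scd1 is among the most abundant lipid enzymes. Fads2 and Fads1 act in turn, with Elovl5 and Elovl2 between and after them, to turn the essential dietary fatty acids into long polyunsaturated ones such as arachidonic acid and docosahexaenoic acid.

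Fads3, Fads2 and Fads1 follow each other on mouse chromosome 19, with 0 protein-coding genes of the RefSeq table starting between Fads3 and Fads2 or between Fads2 and Fads1, while Elovl2 lies on chromosome 13. RefSeq promoter windows, 250 bases before to 50 after a start site, were found for 7 of the 10 genes. Those of Fads2 and Fads3 are shown because these neighbours differed in opposite directions between the diets, and that of Elovl2 because it had the largest fall; all are from build GRCm38.p6 and are written 5′ to 3′ on the gene's strand. Capitals mark matches, on either strand, to an NF-Y box (CCAAT), a sterol element (TCACNCCAC), an E-box (CACGTG) or a GC box (GGGCGG); matches of different motifs did not need to be apart.
Fads2, chr19:10101454-10101753, minus strand: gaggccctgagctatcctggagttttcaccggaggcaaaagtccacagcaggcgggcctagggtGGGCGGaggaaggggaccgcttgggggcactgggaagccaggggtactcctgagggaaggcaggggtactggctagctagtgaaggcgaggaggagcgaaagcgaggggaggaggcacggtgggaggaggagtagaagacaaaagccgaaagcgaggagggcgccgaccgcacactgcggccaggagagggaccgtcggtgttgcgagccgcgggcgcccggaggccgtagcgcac
Fads3, chr19:10041298-10041597, plus strand: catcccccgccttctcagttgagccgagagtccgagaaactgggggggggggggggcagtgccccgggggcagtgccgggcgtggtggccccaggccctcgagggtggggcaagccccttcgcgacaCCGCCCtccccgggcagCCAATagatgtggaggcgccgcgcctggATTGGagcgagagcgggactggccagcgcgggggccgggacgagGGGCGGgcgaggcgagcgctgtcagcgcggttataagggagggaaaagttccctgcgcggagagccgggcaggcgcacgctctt
Elovl2, chr13:41220354-41220653, minus strand: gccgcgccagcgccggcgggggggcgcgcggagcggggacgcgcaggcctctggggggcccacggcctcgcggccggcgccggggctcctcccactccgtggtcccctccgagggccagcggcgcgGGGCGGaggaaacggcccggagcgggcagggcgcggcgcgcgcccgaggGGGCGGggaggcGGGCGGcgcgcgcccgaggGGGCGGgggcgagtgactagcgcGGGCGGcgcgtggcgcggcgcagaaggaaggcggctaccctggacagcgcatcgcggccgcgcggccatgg
The Fads2 window held 1 GC box match and 0 of the other motifs, whereas the Fads3 window held 2 GC box and 2 NF-Y box matches. RefSeq gives Elovl2 2 overlapping windows: the one shown held 5 GC box matches and was 84.7% G and C, and the other (chr13:41220113-41220412) held 0 and was 76.7% G and C, against a median of 52.7% over all windows. Of all 32851 windows of this length, 37.4% held an NF-Y box match, 35.7% a GC box match, 7.15% an E-box match and 1.24% a sterol element match. Among all 9 windows of these genes an E-box match was found in that of Elovl5 (1 match) and 0 windows held a sterol element match. A match describes the letters of a window and is not a binding site.

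Levels are given as log2 intensity after quantile normalization, and a change is the high-fat mean minus the chow mean on that scale, with the standard error (SE) from limma. A gene was called changed at a Benjamini-Hochberg adjusted p under 0.05 over all 18193 genes, each represented by its brightest probe set. In tissue RNA, fewer cells of a type and less RNA per cell cannot be told apart. The median intensity of the arrays lay between 17.9 and 27.4. The adipocyte hormone adiponectin (Adipoq) was at 12.93 ± 0.47 in chow mice and 13.15 ± 0.10 in high-fat mice (SD, n = 5 each). Of 8 measured adipocyte markers 0 passed the threshold, and 3 fell without chow arrays 1 and 2.

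Cell type markers differed between the diet groups, and the chow arrays differed among themselves. All 7 epithelial markers fell, with a summed linear level of 1127 to 13333 on chow and 201 to 326 on the high-fat diet; of 8 epididymis markers 5 fell (4315 to 60734 against 170.2 to 764.6), and of 4 smooth muscle markers 4 fell (6600 to 27277 against 2613 to 4157). Epithelial Cldn7 and epididymal Defb2 lay at the floor of the scale in 1 high-fat array each. Of 10 sperm and testis markers 2 fell (260 to 8091 against 133 to 425), 1 of 5 progenitor markers rose, and 0 of 4 mesothelial and 0 of 6 endothelial markers passed, though all 6 endothelial markers fell without chow arrays 1 and 2. All 10 macrophage markers rose, from a summed level of 2124 to 4726 on chow to 25541 to 37309. Chow arrays 1 and 2 had the lowest endothelial and adipocyte list means of the 5 chow arrays and the highest epithelial ones. The member results are therefore also given without them. That fit does not remove the differences in tissue markers. In it all 7 epithelial, all 8 epididymis and all 4 smooth muscle markers were lower on the high-fat diet. Their median changes were -3.22, -5.01 and -2.14. Results of pathway genes named with values are given without chow arrays 1 and 2 where the value moved by over 1.5 times or the call changed. Calls of other pathway genes also changed without chow arrays 1 and 2, and those genes enter only the counts. The 5′ to 3′ ratio of the actin control, a measure of RNA integrity, was 0.341 ± 0.0731 in chow mice and 0.614 ± 0.0380 in high-fat mice (SD, n = 5 each; 2-sided exact permutation p = 0.00794, the smallest possible). The part of tissue makeup and of RNA integrity in the changes below was not tested.

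Fads1, Fads2 and Elovl2 fell on the high-fat diet and Elovl1 and Fads3 rose, whereas Elovl5, Elovl6, Elovl7, Scd1 and Scd2 did not pass the threshold. Thus 5 of 10 genes changed, where 25.9% of all genes did; 2 rose, beside 12.9% of all genes, and 3 fell, beside 13.1%. The groups did not overlap for 4 of the 10 genes and for 22.5% of all genes. The median change was -0.54 over the 10 genes and -0.04 over all genes. Without chow arrays 1 and 2, 6 genes changed, where 38.2% of all genes did: Elovl1 and Scd2 were higher (18.5% of all genes), and Elovl2, Elovl5, Fads1 and Fads2 were lower (19.8%). Of all genes that changed, 49.6% were higher on the high-fat diet; this share was 64.8% without normalization and 75.4% after array medians were set equal, which shifted the median change of all genes from -0.04 to 0.21.

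**Figure D1:**
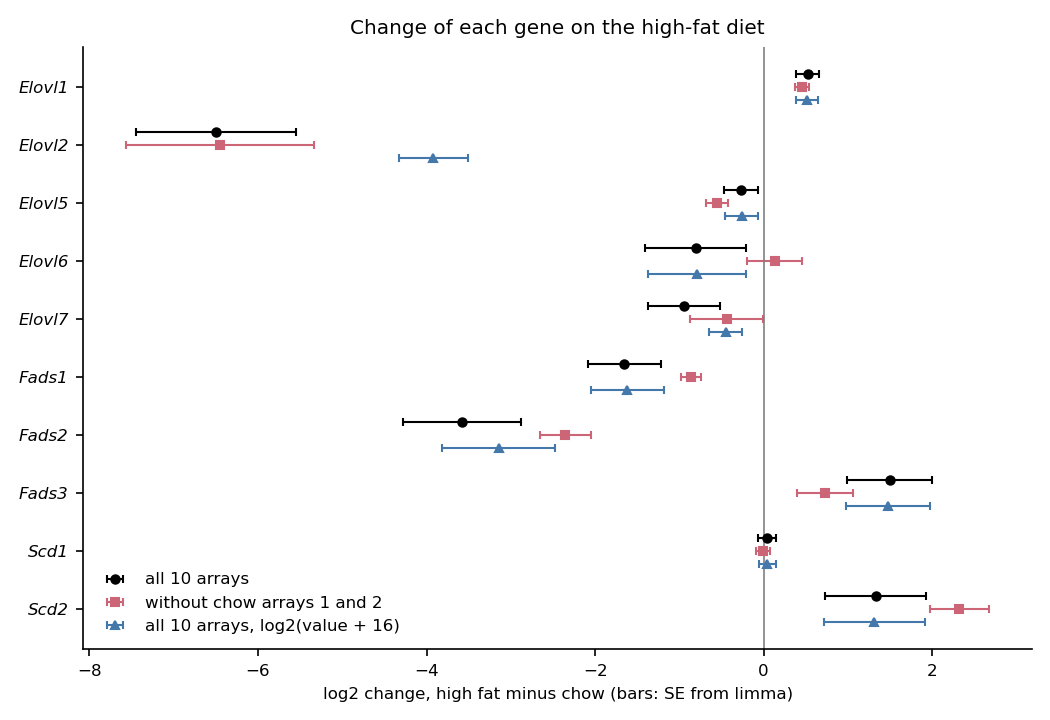
Log2 change of each gene, high fat minus chow (x axis; bars are the SE from limma), over all 10 arrays, without chow arrays 1 and 2, and over all arrays on the log2(value + 16) scale. Fads2 and Fads1 lie below 0 in all 3 fits, Elovl2 moves from -6.50 to -3.92 on the log2(value + 16) scale, and Elovl6 moves from -0.81 to 0.13 without chow arrays 1 and 2.

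Fads2, which carries out the first and slowest desaturation of linoleic and alpha-linolenic acid, fell on all 3 of its probe sets. Its levels in chow arrays 1 to 5 were 10.94, 10.32, 8.32, 7.38 and 6.96, and those in high-fat arrays 1 to 5 were 5.71, 4.92, 4.99, 5.29 and 5.10. The groups were fully apart, and chow arrays 1 and 2 stood far above the other 3. The gene fell by 3.58 on the log2 scale (SE 0.70, adjusted p = 0.00370; 2-sided exact permutation p = 0.00794), to 0.0835 of the chow level on the linear scale. It passed in all 21 alternative fits. It fell by 2.35 without chow arrays 1 and 2 (SE 0.30, adjusted p = 0.000199). The order of the chow arrays by epithelial markers was that by Fads2, with list means of 10.42, 10.32, 8.44, 7.80 and 6.96 in chow arrays 1 to 5 and of 4.09 to 4.77 on the high-fat diet. Smooth muscle markers gave the same order, with list means of 12.69, 10.50, 10.39, 9.69 and 9.51 on chow. On the high-fat diet these means were 6.33 to 8.01. The part of either cell type in the fall of Fads2 was not tested.

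Fads1, the desaturase that completes arachidonic and eicosapentaenoic acid, fell less. In chow arrays 1 to 5 it was at 11.52, 11.13, 9.59, 9.22 and 9.21, and in high-fat arrays 1 to 5 at 8.33, 8.38, 8.64, 8.43 and 8.61. The groups again did not overlap, and the chow arrays had the same order as for Fads2. The fall was 1.65 on the log2 scale (SE 0.43, adjusted p = 0.0172; 2-sided exact permutation p = 0.00794). With array medians set equal the change was -1.23 and missed the threshold (adjusted p = 0.0522). Without chow arrays 1 and 2 the gene fell by 0.86 (SE 0.12, adjusted p = 0.000261).

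Fads3, a relative of Fads1 and Fads2 that acts on sphingoid bases rather than on polyunsaturated acids, differed the other way from its neighbours. Its levels were 8.22, 8.92, 9.44, 10.81 and 11.25 in chow arrays 1 to 5 and 11.35, 11.46, 10.93, 11.44 and 10.96 in high-fat arrays 1 to 5. Chow arrays 1, 2 and 3 were low, while chow array 5 lay within the high-fat range. Fads3 rose by 1.50 on the log2 scale (SE 0.50, adjusted p = 0.0498; 2-sided exact permutation p = 0.0317), just past the threshold. It passed in 7 of 21 alternative fits and missed the threshold without chow array 1, 2 or 3 or any 1 high-fat array (adjusted p up to 0.102). Without chow arrays 1 and 2 together the change was 0.73 for this brightest probe set (SE 0.34, adjusted p = 0.121). The other Fads3 probe sets are given below, and 1 of them passed in this fit. Fads3 ranked the chow arrays in exactly the reverse order of Fads2 and Fads1.

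**Figure D2:**
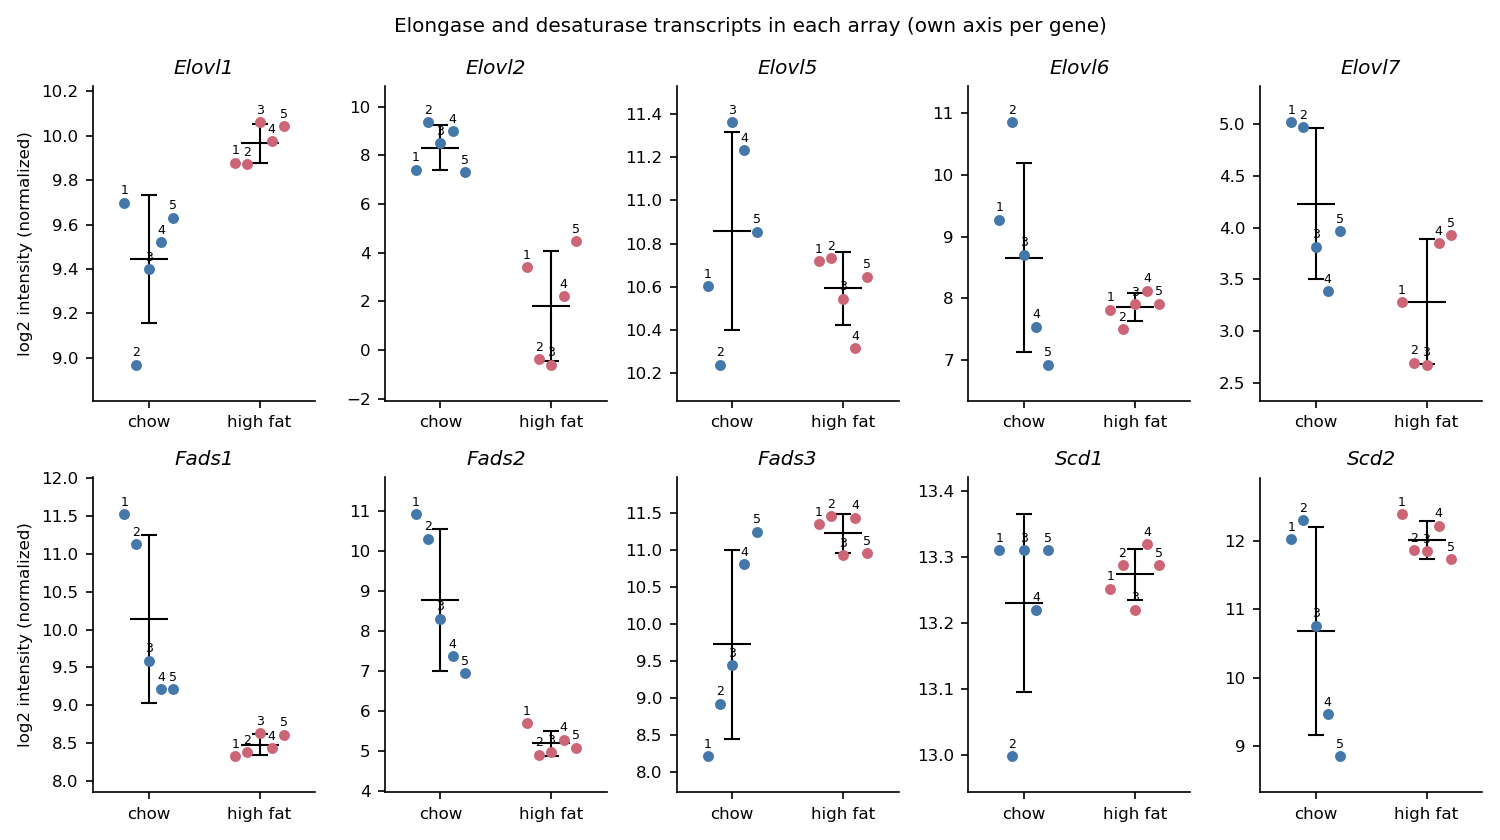
Normalized log2 intensity of each gene (y axis, own scale per gene) in each of 5 chow and 5 high-fat arrays; points carry the replicate number, and the line and bar are the mean and SD. Chow arrays 1 and 2 are the highest chow arrays for Fads1, Fads2, Elovl6, Elovl7 and Scd2 and the lowest for Fads3 and Elovl5. The high-fat arrays span 5.07 for Elovl2, 1.25 for Elovl7 and at most 0.79 for the other genes.

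Elovl2, the elongase for the longest polyunsaturated acids, was measured clearly on chow and was dim on the high-fat diet, in some arrays near the floor of the table. Its 5 chow arrays gave 7.41, 9.36, 8.49, 8.99 and 7.31, and the 5 high-fat arrays gave 3.40, -0.39, -0.60, 2.20 and 4.47. In deposited intensities these are 123.2 to 608.0 on chow and 0.257 to 21.8 on the high-fat diet, where the floor was 0.658, and high-fat array 3 lay at it, so the order within the high-fat group carries little. No array of one group reached the other group. The gene fell by 6.50 on the log2 scale (SE 0.95, adjusted p = 0.000679; 2-sided exact permutation p = 0.00794), a size that depends on the floor. It fell by 3.92 on the log2(value + 16) scale (SE 0.41, adjusted p = 8.09e-05). Leaving out chow arrays 1 and 2 gave a fall of 6.45 (SE 1.11, adjusted p = 0.00118). Elovl2 was lower in the same arrays as the epididymis list mean, which ran from 7.53 to 12.54 on chow and from 3.56 to 6.26 on the high-fat diet. Both were highest in chow array 2, but among chow arrays the epididymis mean was lowest in array 1 and Elovl2 in array 5. The single epididymis markers were split in chow array 1. There Lcn8, Lcn9 and Rnase10 (3.72, 1.13 and 4.16) lay below every high-fat array, and Lcn5 (6.43) lay within the high-fat range. Crisp4, Adam7, Pate4 and Defb2 (9.25, 11.31, 12.95 and 11.26) lay above every high-fat array. The part of epididymal RNA in the fall of Elovl2 was not tested.

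Elovl5, which lengthens the products of Fads2, was at 10.86 ± 0.46 in chow mice and 10.59 ± 0.17 in high-fat mice (SD, n = 5 each). Chow arrays ran from 10.24 in array 2 to 11.36 in array 3, and the high-fat range of 10.32 to 10.73 lay inside the chow range. Elovl5 did not pass (-0.27, SE 0.20, adjusted p = 0.373) and had the other sign without normalization (0.12) and with array medians set equal (0.25). Elovl5 fell by 0.56 without chow arrays 1 and 2 (SE 0.13, adjusted p = 0.00759).

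Elovl1, which makes the very long saturated and monounsaturated chains of sphingolipids, rose by the smallest amount of the genes that changed. It lay at 9.70, 8.97, 9.40, 9.52 and 9.63 in chow arrays 1 to 5 and at 9.88, 9.87, 10.06, 9.98 and 10.04 in high-fat arrays 1 to 5. All high-fat arrays were above all chow arrays, and chow array 2 was the lowest. The change was 0.52 (SE 0.14, adjusted p = 0.0169; 2-sided exact permutation p = 0.00794), 1.44 times the chow level. Elovl1 passed in 20 of 20 alternative fits, with changes from 0.40 to 0.98, the largest with array medians set equal. Without chow arrays 1 and 2 the change was 0.45 (SE 0.08, adjusted p = 0.00183). All 4 Elovl1 probe sets carry an ID suffix (x or a) that marks probes shared with other sequences or between transcripts of the gene, so no fit without such probe sets could be made for it.

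Elovl6, which extends palmitate to stearate in lipogenesis, had a chow range of 3.93 on the log2 scale around a narrow high-fat range of 0.63. Chow arrays 1 to 5 held 9.28, 10.86, 8.71, 7.54 and 6.93, and high-fat arrays 1 to 5 held 7.82, 7.50, 7.91, 8.13 and 7.92. Chow arrays 1, 2 and 3 lay above every high-fat array, and chow array 5 lay below them all. The difference of -0.81 was not called (SE 0.60, adjusted p = 0.366), and without chow arrays 1 and 2 it had the other sign (0.13, SE 0.32, adjusted p = 0.795). Elovl7, an elongase of long-chain fatty acids, was near background, with deposited intensities of 12.3 to 32.8 on chow and 5.86 to 15.2 on the high-fat diet. Its difference was -0.95 (SE 0.43, adjusted p = 0.133), it passed in 0 of 21 alternative fits, and it was -0.44 (SE 0.43, adjusted p = 0.475) without chow arrays 1 and 2.

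Scd1, the main stearoyl-CoA desaturase of adipocytes, did not pass the threshold. Its deposited intensity was 8468 to 10456 on chow and 9597 to 10423 on the high-fat diet, or 70.6% to 81.1% of the brightest probe set of the same array. After normalization the levels were 13.23 ± 0.14 and 13.27 ± 0.04 (SD, n = 5 each), with 3 chow arrays tied at 13.31 because quantile normalization gives arrays of equal rank an equal value. The difference was 0.04 (SE 0.11, adjusted p = 0.806), and it was -0.01 without chow arrays 1 and 2. The upper limit of the scanner is not stated in the labels, so how far a probe set this bright can rise is unknown. The second Scd1 probe set differed by 0.40 (SE 0.35, adjusted p over all probe sets = 0.486), with chow arrays 1 and 2 at 9.34 and 8.97 and the other 8 arrays at 9.80 to 10.83.

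Scd2, a desaturase of many tissues that in fat is also known from precursor and stromal cells, separated the chow arrays more than the diets. In chow arrays 1 to 5 it was at 12.03, 12.31, 10.76, 9.46 and 8.85, and in high-fat arrays 1 to 5 at 12.40, 11.87, 11.86, 12.22 and 11.73. Chow arrays 1 and 2 lay within the high-fat range, and the other 3 lay below it. Over all arrays the difference of 1.33 was not called (SE 0.60, adjusted p = 0.130; 2-sided exact permutation p = 0.135). Without chow arrays 1 and 2 Scd2 rose by 2.32 (SE 0.35, adjusted p = 0.000534), and without chow array 2 alone by 1.74 (adjusted p = 0.0321). Scd2, Elovl6 and the sperm and testis list mean all put chow array 2 highest, then arrays 1, 3, 4 and 5.

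The chow arrays were more spread than the high-fat arrays for 9 of the 10 genes, where 76.8% of all genes showed this. The SD on chow was 8.01 times that on the high-fat diet for Fads1, 6.75 times for Elovl6, 5.56 times for Fads2 and 5.40 times for Scd2. Elovl2 was the exception, with an SD of 0.92 on chow and 2.26 near the floor on the high-fat diet. Within chow, Fads1 and Fads2 were highest in arrays 1 and 2, where the epithelial and smooth muscle list means were also highest. Fads3 and Elovl5 were lowest in arrays 1 and 2, as was the adipocyte list mean (11.44 and 10.20, against 11.53 to 11.76 in the other 3). These orders rest on 5 arrays and were not tested.

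**Figure D3:**
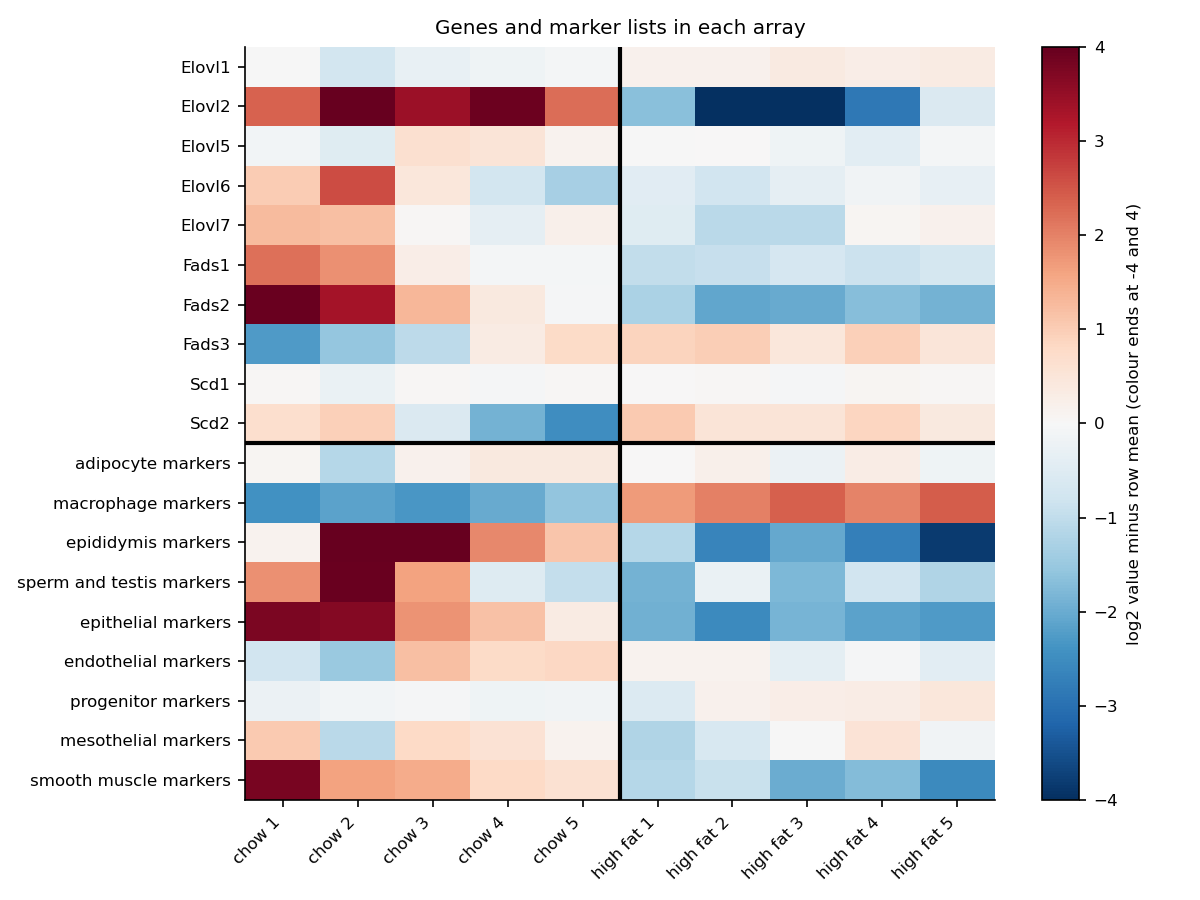
Log2 value minus the row mean (colour) for the 10 genes and for the mean of each cell type marker list (rows) in 10 arrays (columns). Fads2 and Fads1 darken and lighten over the chow arrays with the epithelial list (means of 6.96 to 10.42 there) and the smooth muscle list (9.51 to 12.69). Fads3 runs the opposite way. The macrophage list separates the groups with means of 6.39 to 7.23 on chow and 10.50 to 11.25 on the high-fat diet.

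When all 29 probe sets were tested among 45037, 10 changed, where 17.9% of all probe sets did; 4 rose (9.89% of all) and 6 fell (8.00% of all). The groups did not overlap for 9 of the 29 and for 16.7% of all probe sets. Of the Fads2 probe sets the one described above fell by 3.58, another fell by 1.75, and the last fell by 5.43, with a mean near the floor (0.72) in high-fat mice. On the log2(value + 16) scale this last Fads2 probe set fell by 2.45. Of 4 Elovl1 probe sets 3 rose, by 0.52, 0.56 and 0.97, and the remaining one differed by 0.74 (adjusted p = 0.113). The 3 Fads3 probe sets differed by 1.50, 1.44 and 2.56, and the last one passed (SE 0.60, adjusted p = 0.0123). In this larger family the one described above had an adjusted p of 0.0577. Without chow arrays 1 and 2 the 3 Fads3 probe sets differed by 0.73, 0.55 and 1.64. Only the last passed in that fit (SE 0.39, adjusted p = 0.0103). The second Fads1 probe set did not pass (-0.41, SE 0.30, adjusted p = 0.392), and its groups overlapped. The second Elovl5 probe set did not pass either (-0.54, SE 0.24, adjusted p = 0.157). Without chow arrays 1 and 2 this Elovl5 probe set fell by 0.92 (SE 0.11, adjusted p = 0.000145). The remaining Elovl6 probe sets differed by -0.43 and, at means of 3.89 and 2.28, by -1.61, and did not pass (adjusted p = 0.700 and 0.137). For Elovl7, 1 of 6 probe sets fell by 1.53 (SE 0.48, adjusted p = 0.0465), from a mean of 4.43 to 2.90, near background. Its change was -0.67 on the log2(value + 16) scale, and it missed the threshold without chow arrays 1 and 2 (-1.01, adjusted p = 0.180). The other 5 Elovl7 probe sets differed by -1.56 to -0.27 and did not pass. All 3 Scd2 probe sets differed by 1.16 to 1.49, and 0 passed; without chow arrays 1 and 2 they rose by 2.32, 2.25 and 1.67.

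**Figure D4:**
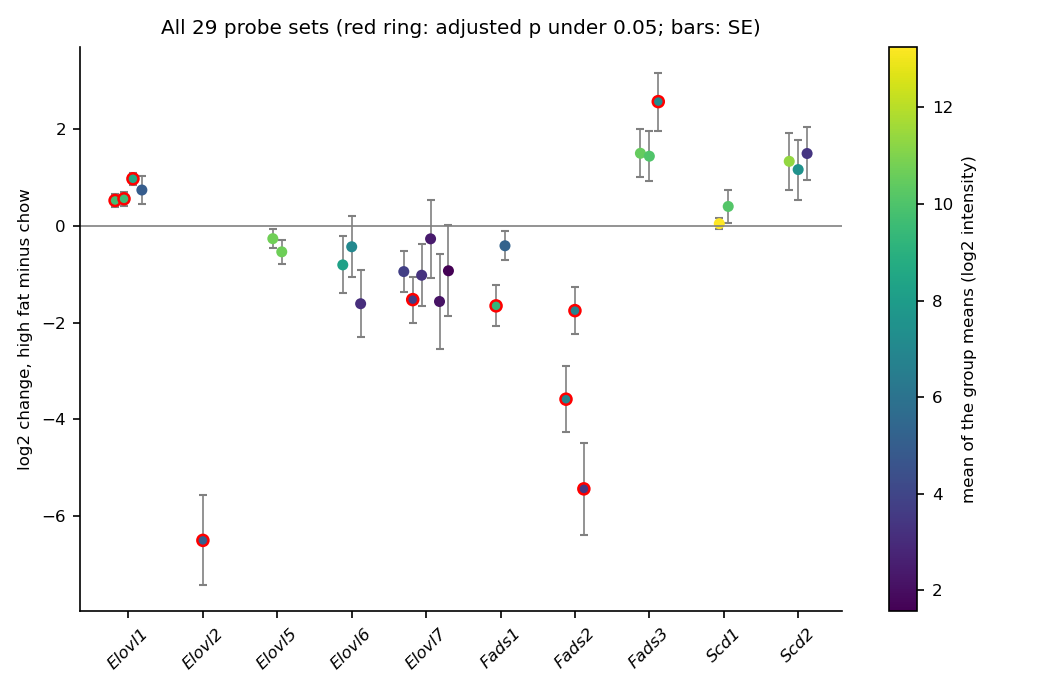
Log2 change of each of 29 probe sets (y axis; bars are the SE), coloured by the mean of both groups, with a red ring where the adjusted p over all probe sets is under 0.05. The 3 Fads2 probe sets and the single Elovl2 probe set lie lowest, and the 3 Fads3 and 3 Scd2 probe sets lie above 0.

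Of the other enzymes of these families, 6 of 7 were measured, and 1 rose and 1 fell. Degs1, the desaturase that makes ceramide, rose by 1.07 (SE 0.13, adjusted p = 0.000257), and its relative Degs2 fell by 2.35 (SE 0.57, adjusted p = 0.0121), or by 1.22 on the log2(value + 16) scale. Elovl3, Elovl4, Scd3 and Fads6 did not pass, with differences of -0.18, -1.24, -1.15 and -0.44 (-1.08, -0.40, -0.36 and 0.21 without chow arrays 1 and 2, again not called). Scd3 passed without chow array 5 (adjusted p = 0.0495). Among the 6 partners in the elongation cycle, 2 rose and 1 fell. The first reductase, Hsd17b12, rose by 1.02 (SE 0.14, adjusted p = 0.000433), the dehydratase Hacd4 rose by 1.69 (SE 0.47, adjusted p = 0.0214), and the dehydratase Hacd3 fell by 1.02 (SE 0.24, adjusted p = 0.00972). The fall of Hacd3 was not called without normalization (-0.70, adjusted p = 0.0765), with array medians set equal (-0.57, adjusted p = 0.0896) or for the mean of its probe sets (-0.61, adjusted p = 0.125), and the rise of Hacd4 was not called without chow array 3 (adjusted p = 0.0533) or high-fat array 3 (adjusted p = 0.0528). Tecr, the final reductase, differed by 0.58 (SE 0.36, adjusted p = 0.269) but rose by 0.88 without chow array 2 (adjusted p = 0.0293) and by 1.19 without chow arrays 1 and 2 (adjusted p = 0.000170). Hacd3 fell by 0.61 without those arrays (adjusted p = 0.000965). The median change of the list was 0.13, beside -0.04 over all genes.

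Of 6 genes listed under the electron supply to desaturases, 3 rose and 0 fell. Cyb5b, a cytochrome b5 other than that of the endoplasmic reticulum, rose by 0.996 (SE 0.33, adjusted p = 0.0456). The reductases Cyb5r4 and Cyb5r3 rose by 0.69 (SE 0.19, adjusted p = 0.0228) and 0.55 (SE 0.17, adjusted p = 0.0378). These calls were lost in 9, 4 and 10 of the 21 alternative fits, with adjusted p up to 0.103, 0.0644 and 0.944. Leaving out 1 array ended the call of Cyb5b for chow arrays 3, 4 and 5 and each high-fat array, of Cyb5r4 for chow array 3 and high-fat arrays 3 and 5, and of Cyb5r3 for chow arrays 1 and 3 and each high-fat array. Of the other 3 Cyb5r3 probe sets, 2 rose, by 0.89 and 1.26 (adjusted p over all probe sets = 0.000295 and 0.00110). The last, the only one without an ID suffix, was near background (means 2.55 and 2.47) and differed by -0.08. Cyb5a, the cytochrome b5 of the endoplasmic reticulum, differed by -0.17 (SE 0.19, adjusted p = 0.569). Without chow arrays 1 and 2 Cyb5b rose by 1.53 and Cyb5r3 by 0.36, and Cyb5a fell by 0.45 (adjusted p = 0.000163, 0.0184 and 0.00407). Of 8 genes that supply palmitate, 5 rose and 0 fell, with a list median of 1.51. Fatty acid synthase, Fasn, rose by 1.68 (SE 0.21), the acetate-activating Acss2 by 1.72 (SE 0.17) and the NADPH source Me1 by 1.94 (SE 0.39). Slc25a1 and Thrsp also rose, by 1.54 and 1.49, whereas Acly, Acaca and Acacb did not pass, with differences of -0.14, -0.28 and -1.57. The call of Thrsp was lost without high-fat array 1 or 4 (adjusted p = 0.0559 and 0.0527). This call was also lost for the mean of the Thrsp probe sets (1.34, adjusted p = 0.0568). Acacb fell by 2.18 without chow array 2 (adjusted p = 0.00171) and fell by 2.62 without chow arrays 1 and 2 (adjusted p = 1.04e-05). Acaca fell by 0.57 and fell by 0.66 in these fits (adjusted p = 0.0385 and 0.0149), and Acly differed by 0.20 and 0.41 without passing.

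Among 11 measured regulators 1 rose and 2 fell. Insig1, which holds the sterol sensor in the endoplasmic reticulum and is itself a sterol-regulated gene, rose by 2.02 (SE 0.19). Mlxipl, the carbohydrate-response factor ChREBP, fell by 1.25 (SE 0.37, adjusted p = 0.0275), and Ppara, a fatty acid receptor, fell by 1.19 (SE 0.30, adjusted p = 0.0129). The Mlxipl call was lost in 9 of 20 alternative fits, with adjusted p up to 0.0735, among them those without chow array 3, 4 or 5 or high-fat array 2, 3, 4 or 5. Srebf1, which encodes the lipogenic factor that activates Fads, Elovl and Scd genes, differed by -0.05 (SE 0.19, adjusted p = 0.884), and by 0.11 without chow arrays 1 and 2 (adjusted p = 0.653). Of 10 genes that use the products, 3 rose and 1 fell: Dgat2, which completes triglyceride, rose by 2.34 (SE 0.32), Agpat2 rose by 1.51 (SE 0.27), Cers4, a ceramide synthase, rose by 1.08, and Gpam fell by 1.32 (SE 0.37, adjusted p = 0.0222). Gpam lost its call in 6 of 21 alternative fits (adjusted p up to 0.126), among them those without chow array 3 or high-fat array 3 or 5. Of 4 measured genes of the peroxisomal steps to docosahexaenoic acid, Hsd17b4 rose by 0.79 (SE 0.23, adjusted p = 0.0272; lost in 7 of 21 alternative fits, with adjusted p up to 0.0634, among them those without chow array 1 or 3 or high-fat array 1, 2, 3 or 4; 0.45 without chow arrays 1 and 2), and 0 of 4 measured acyl-CoA synthetases passed, Acsl6 having the smallest p (difference -2.49, SE 0.84, adjusted p = 0.0507), which passed in 5 of 20 alternative fits: without normalization and with array medians set equal (adjusted p = 0.0379 each), with a replicate block, and without chow array 4 or high-fat array 3 (adjusted p = 0.0285 and 0.0487). Acsl6 was near the floor in high-fat mice (mean 1.27), and its difference was -0.75 on the log2(value + 16) scale. Without chow arrays 1 and 2 the counts higher and lower were 3 and 3 for the elongation partners, 4 and 1 for electron supply, 5 and 2 for palmitate supply, 1 and 4 for regulators, 4 and 2 for the users and 1 and 2 for the peroxisomal steps.

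The genes most like each changed member in pattern were sought among 9088 other genes with a mean above the median of all genes, by the root mean square difference of mean-centred log2 values over the 10 arrays. Nearest to Fads2 were Aqp9 (0.26), Hoxb5os (0.37) and Cd24a (0.43), and nearest to Fads1 were Coro2a (0.20), Dennd11 (0.23) and Sorbs2 (0.24). Fads3 was closest to Btc (0.26), Slc6a13 (0.26) and Mdfic (0.29), and Elovl1 to Nampt (0.07), Dgkz (0.09) and Sfr1 (0.10). For Elovl2 the closest candidates were Dsg2 (1.58), Rgn (1.64) and C4bp (1.68). Its own mean ranked below the median of all genes, at 40.0%, so dimmer genes of a similar pattern were not among the candidates. These distances describe likeness over 10 arrays in 2 groups and carry no test.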

How the data were processed

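Total RNA of epididymal fat was hybridised to 1 Affymetrix array per mouse after biotin labelling, per the labels' protocols. The authors deposited 1 linear intensity per probe set and array; the summary algorithm is not given in the sources used here. Intensities were raised to the 5th percentile of all values (0.658), log2 transformed and quantile normalized, since array medians differed by 0.613, over a limit of 0.5. The platform annotation gave exactly 1 symbol to 34958 of 45101 probe sets, several to 932, and did not list 9211; 64 control probe sets were left out. The probe set with the highest mean stood for each gene. Genes and probe sets were tested with limma 3.58.1 (R 4.3.3; lmFit, eBayes with trend, Benjamini-Hochberg), and single genes with a 2-sided exact permutation test over 252 arrangements. The number of arrays limits the precision. Numbers shared between groups were not used to pair the arrays (correlations of same-numbered deviations from -0.012 to 0.011). These correlations cannot exclude a pairing, because the chow deviations also carry the spread of the tissue markers. A fit with a replicate block is among the alternatives.

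The members, the lists, the tests and the 21 alternative fits were chosen with earlier results of these data known. Named genes are the 10 members, up to 3 changed genes with the largest change from each pathway list (else the smallest p), and the 3 genes most like each changed member. Elovl3, Elovl4, Scd3, Fads6, Tecr, Cyb5a, Srebf1, Cers4, Slc25a1, Thrsp, Acly, Acaca and Acacb were named after their values were seen. So were the single epididymis markers given for chow array 1. When high-fat against chow was simulated for 18193 genes from their measured levels and spread, 55% of 100 changes of 1 (log2) and 90% of 100 changes of 2 were recovered, with 6 false calls among 151.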

Additional observations from a re-analysis of the deposited data

Results flagged for a closer look

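Of 84 groups of 5 arrays checked for an array far from the others (the members and the pathway genes named with values), 5 stood out; chance gives about 1 in 20. Scd1 was lowest in chow array 2 (13.00, with the next at 13.22 and the highest at 13.31; the gap was 0.71 of the range, at the critical value of 0.71). Hacd4 was highest in chow array 1 (9.00, next 6.65, lowest 6.12). Degs2 was lowest in high-fat array 4 (1.15, next 3.26, highest 3.59). In chow array 2, Thrsp was lowest (8.73, next 10.52, highest 11.23) and Srebf1 was highest (10.52, next 9.90, lowest 9.70).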

How the results depend on the processing

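Of 1074 values recomputed under 21 alternatives, 935 kept their direction and side of the threshold, or for counts stayed within 1.5 times. Elovl2 and Fads2 passed in 21 of 21 alternatives, Elovl1 in 20 of 20 (its probe sets are all suffixed) and Fads1 in 20 of 21. The count of members higher (2) was 1 with log2(value + 16), without suffixed probe sets, with eBayes without trend and with a replicate block, where Fads3 missed the threshold (adjusted p = 0.0705), and 1 to 2 leaving out 1 array. The cause was not tested. In the fit without suffixed probe sets that 1 member was Elovl1, which was kept on a suffixed probe set because it has no other kind. The block also lost the calls of Cyb5r4, Cyb5r3, Mlxipl and Hsd17b4 and changed no other call downward; it put Acsl6 past the threshold. The count of member probe sets higher (4) was 2 with eBayes without trend, 7 with array weights, 7 without chow arrays 1 and 2, and 2 to 7 leaving out 1 array. All genes lower numbered 1491 for the values as deposited, 1440 with medians centred (4420 higher) and 3596 without chow arrays 1 and 2, against 2379 (2338 higher); probe sets changed numbered 12723 without those arrays, against 8057. Signs turned for values as deposited in Elovl5 (0.12), Cyb5a (0.014), Acly (0.21) and Srebf1 (0.28), with medians centred in Elovl5 (0.25), Cyb5a (0.15), Acly (0.35), Acaca (0.13) and Srebf1 (0.42), for the mean of all probe sets in Acaca (0.071), with array weights in Acly (0.31) and Srebf1 (0.039), without suffixed probe sets in Cyb5r3 (-0.084), and without chow arrays 1 and 2 in Elovl6 (0.13), Scd1 (-0.0069), Fads6 (0.21), Acly (0.41) and Srebf1 (0.11). Leaving out 1 array turned the sign of Scd1 (-0.014 to 0.064), Fads6 (-0.75 to 0.0069), Elovl3 (-0.53 to 0.21), Acly (-0.35 to 0.20) and Srebf1 (-0.14 to 0.10). Of all these genes, Cyb5r3 alone was called over all arrays. Values near the floor, as for Elovl2 in some high-fat arrays, and no detection calls limit the dim genes.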
